A study of Papio anubis with 12 samples.

Results

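The 9 genes described here mark oligodendrocyte precursor cells and the steps by which these cells become oligodendrocytes: PDGFRA, CSPG4, OLIG1, OLIG2, SOX10, NKX2-2, GPR17, PTPRZ1 and MYRF. A probe set was taken for a gene when the annotation of the array platform gave it that gene symbol and no other. The platform names 19775 genes in this way, and 18 of the 54613 probe sets tested belonged to the 9: 4 to PDGFRA, 3 to MYRF, 2 each to CSPG4, OLIG2, SOX10 and GPR17, and 1 each to OLIG1, NKX2-2 and PTPRZ1. RNA came from the precentral gyrus (primary motor cortex) of 12 baboon neonates, 4 per formula, and each animal had its own Affymetrix HG-U133 Plus 2.0 array. All animals were born at term and were formula fed until necropsy at 83 to 87 days of age. Formula C was made without docosahexaenoic acid (DHA) and arachidonic acid (ARA), L with 0.33% DHA plus 0.67% ARA, and L3 with 1.00% DHA at the same 0.67% ARA. Ages were 83 to 85 days in C, 84 to 87 in L and 83 to 84 in L3. Males numbered 2 in C, 1 in L and 0 in L3, so sex and formula are partly confounded. The comparisons ask whether either amount of dietary DHA and ARA was accompanied by another level of these transcripts than the formula without them, and whether L3 differed from L.

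Oligodendrocytes wrap axons in myelin. They arise from proliferating precursor cells that carry the PDGF receptor alpha and the NG2 proteoglycan on their surface, pass through a short committed stage and then switch on the genes of the myelin sheath. Basic helix-loop-helix, HMG-box and homeodomain transcription factors hold the lineage and time the switch, and in primate cortex much of this continues after birth.

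The probes of the array were designed on human transcripts. Signals of different probe sets therefore cannot be set against each other, and only the same probe set was compared between animals. Each of the 9 symbols is also the symbol of an annotated baboon gene, and OLIG1 and OLIG2 lie close together there with 1 annotated gene between them. The deposited signals were scaled per array to a common trimmed mean near 250. Of the 18 probe sets, 7 had a mean signal above the median of all probe sets. The arrays were split by rank, not at a wide gap, into 6 with higher and 6 with lower signal of the bacterial spike-in controls. The mean log2 spike-in signal was 12.26 to 13.72 in the higher set and 10.74 to 12.00 in the lower. The 6 with higher signal were 2 of the C, 1 of the L and 3 of the L3 arrays. The median signal of an array was 149.9 to 174 where spike-in signal was higher and 108.8 to 133.2 where it was lower. The ratio of the 3′ to the 5′ control probe sets of ACTB, a sign of RNA quality, was 3.65 to 72.3 in arrays with higher and 0.904 to 3.64 in arrays with lower spike-in signal. Values with this split are given below. The neuronal markers SNAP25 and SYT1 had mean signals of 22646 and 18320 over the 12 arrays. They mark neural tissue and cannot tell the labelled gyrus from other brain regions. In bulk tissue, fewer cells of a type and less RNA per cell cannot be told apart.

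No probe set of the 9 genes differed between formulas after correction for the number of tests. Limma gave an adjusted p under 0.05 to 0 of the 18 in L/C, in L3/C, in L3/L and in the test for any difference among C, L and L3, against 0% of all 54613 probe sets in each comparison. At an unadjusted p under 0.05, limma called 0 of 18 in L/C, 1 of 18 in L3/C and 3 of 18 in L3/L, where it called 2.42%, 4.26% and 5.4% of all probe sets. In the test for any difference, 1 of 18 had such a p, against 3.67% of all. The 4 calls of the pairwise comparisons were all lower in L3. They were MYRF 204073_s_at in L3/C, and SOX10 209842_at, NKX2-2 206915_at and the same MYRF probe set in L3/L, while 2.04% and 2.44% of all probe sets were lower in L3 at such a p in L3/C and L3/L. The smallest adjusted p among the 18 was 0.891 in L3/L and 0.999 in L3/C. Log2 differences were computed from quantile normalized values of log2 (signal + 16), which makes differences of low signals smaller. Over the 18 probe sets their median was 0.0047 in L/C, −0.0082 in L3/C and −0.031 in L3/L, against −0.0089, −0.00072 and 0.0065 over all probe sets. For L/C, as for L3/C, 9 of the 18 were higher and 9 lower. For L3/L, 8 were higher and 10 lower.

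**Figure D1:**
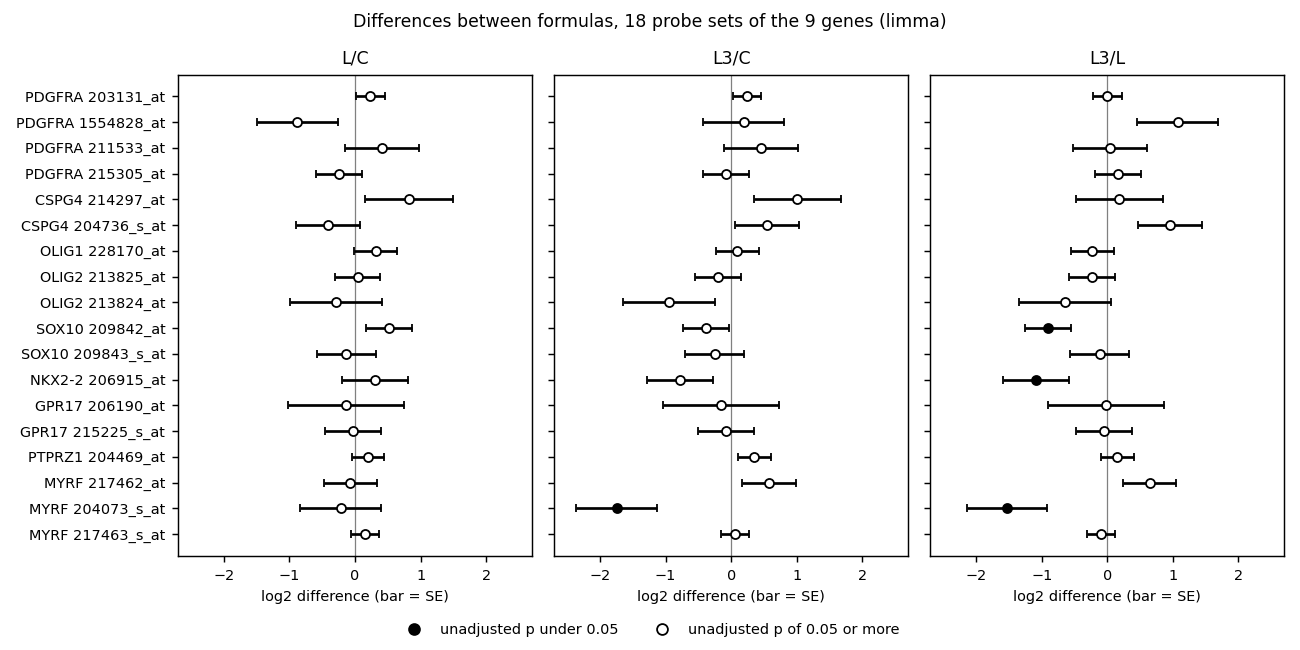
Log2 difference (x axis) of each of the 18 probe sets of the 9 genes (y axis) in L/C, L3/C and L3/L, with bars for the standard error from limma. Filled points have an unadjusted p under 0.05: 0 in L/C, 1 in L3/C and 3 in L3/L, all to the left of 0, and no point passed the adjusted test.

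None of the receptors at the surface of the precursor cells passed the adjusted test between formulas. PDGFRA, the receptor through which PDGF-AA drives precursor division, had signals (203131_at) of 2099.9, 1224, 1906 and 1724 on formula C, 1365, 2799, 1816 and 2471 on L, and 1478, 1737, 2091 and 1756 on L3. All 3 groups overlapped, and the highest of the 12 signals was 2.29 times the lowest. The log2 difference was 0.24 (SE 0.22, exact permutation p = 0.143) in L/C, 0.24 (SE 0.22, exact permutation p = 0.343) in L3/C and 0.0025 (SE 0.22, exact permutation p = 0.971) in L3/L. On the normalized scale C replicate 1 stood at 11.10, above the other C arrays at 10.52 to 10.59. The 3 other PDGFRA probe sets had signals of 8.7 to 226 over the 12 arrays, and none had an unadjusted p under 0.05 in any comparison. Over the 12 arrays the brightest of them, 1554828_at, had a correlation of 0.013 with 203131_at.

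CSPG4 encodes NG2, the chondroitin sulfate proteoglycan by which precursor cells are recognised. Its probe set 214297_at had signals of 13.9, 21.6, 90.4 and 54.2 on formula C, 17.5, 139.7, 119.9 and 86.7 on L, and 76.8, 51.5, 164.7 and 150.3 on L3. The 2 lowest C arrays and the lowest L array lay below every L3 array, but the groups overlapped. The L/C difference was 0.82 on the log2 scale (SE 0.67, exact permutation p = 0.343), and the L3/C difference was 1.01 (SE 0.67, exact permutation p = 0.171). Without L replicate 1 the L/C difference was 1.42, with an unadjusted p of 0.0364 from limma. The 3 arrays below 25 were among the 6 with higher spike-in signal. With these 2 sets of arrays as a block, the L3/C difference was 1.43 with an unadjusted p of 0.0106 and an adjusted p of 0.978 from limma, against 1.01 and 0.15 without the block, and with the spike-in signal as a covariate it was 1.42 with an unadjusted p of 0.0371. Within the arrays of higher spike-in signal it was 1.65 (unadjusted p = 0.0235), and within those of lower signal 0.82 (unadjusted p = 0.253). The block and the fits within its sets were added after seeing the data. The second probe set, 204736_s_at, had signals of 7.6 to 192.5 and differed by −0.41 (SE 0.49) on the log2 scale for L/C and by 0.54 (SE 0.49) for L3/C, and its correlation with the first over the 12 arrays was 0.073. With the block its L3/C difference was 0.51 (unadjusted p = 0.332 from limma). Within the arrays of higher and of lower spike-in signal it was 0.16 and 1.08. Both probe sets had a mean signal below the median of all probe sets.

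PTPRZ1 encodes a receptor tyrosine phosphatase of precursor cells and astrocytes that is bound by pleiotrophin. Its signals were 873, 506, 985 and 807 on formula C, 804, 1131, 782 and 795 on L, and 1005, 861, 855 and 802 on L3. C replicate 2 was the lowest array, and the other 11 lay between 782 and 1131. The log2 difference was 0.20 (SE 0.25, exact permutation p = 0.457) in L/C and 0.35 (SE 0.25, exact permutation p = 0.143) in L3/C.

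GPR17 encodes a G protein coupled receptor that is transient in committed precursors and goes down as they mature. Its probe set 206190_at had signals of 49.8, 26.2, 197 and 219.9 on formula C, 18.3, 215, 184 and 35.3 on L, and 283, 209, 30.1 and 20.1 on L3. The 12 arrays formed 2 separate clusters, 6 at 183.8 to 282.7 and 6 at 18.3 to 49.8, and each formula had 2 animals in either. The log2 difference was −0.14 (SE 0.88) for L/C and −0.16 (SE 0.88) for L3/C. Of the higher cluster 2 arrays, and of the lower 4, were among the 6 with higher spike-in signal. The second probe set, 215225_s_at, had signals of 24.3 to 71.0. Over the 12 arrays its correlation with the first was 0.72 (permutation p = 0.0207 adjusted over 6 such pairs), and rho was 0.69 (adjusted permutation p = 0.0992). Within the lower cluster r was 0.78 and within the higher −0.012 (n = 6 each).

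OLIG1 and OLIG2 encode the paired helix-loop-helix factors that define the lineage, OLIG2 from its specification onwards and OLIG1 also in maturation. OLIG1 had signals of 748, 550.1, 1407 and 1280.3 on formula C, 627, 1673, 1512 and 1262 on L, and 1278, 818, 558 and 1064 on L3. The 3 groups overlapped, and the highest of the 12 signals was 3.04 times the lowest. The log2 difference was 0.32 (SE 0.33, exact permutation p = 0.343) in L/C, 0.093 (SE 0.33, exact permutation p = 0.83) in L3/C and −0.23 (SE 0.33, exact permutation p = 0.486) in L3/L. For L3/C the sign was not stable to scaling: −0.064 without quantile normalization, and −0.23 when arrays were centred on their medians. The OLIG1 signals were 550.1 to 1278 (median 688) in the arrays with higher spike-in signal and 1064 to 1673 (median 1344) in those with lower. Within these sets L3/C was 0.39 and −0.24, and L/C was 0.015 and 0.18.

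The brighter OLIG2 probe set (213825_at) had signals of 236, 349, 272 and 406 on formula C, 571, 222 (replicate 2), 207 and 294 on L, and 301, 311, 305 and 232 on L3. The L3 animals were the closest together, with a mean signal of 288 ± 37.2, against 323 ± 169 in L and 316 ± 76.3 in C (SD, n = 4 each). The L/C difference was 0.038 on the log2 scale (SE 0.35, exact permutation p = 0.971), and it turned to −0.052 without quantile normalization and to −0.019 when arrays were centred on their medians. The L3/C difference was −0.20 (SE 0.35, exact permutation p = 0.314). The other OLIG2 probe set (213824_at) had a signal of 8.6 in L3 replicate 3 and of 39.4 to 372 in the other 11 arrays. Its log2 difference in L3/C was −0.95 (SE 0.70), with an exact permutation p = 0.4.

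**Figure D2:**
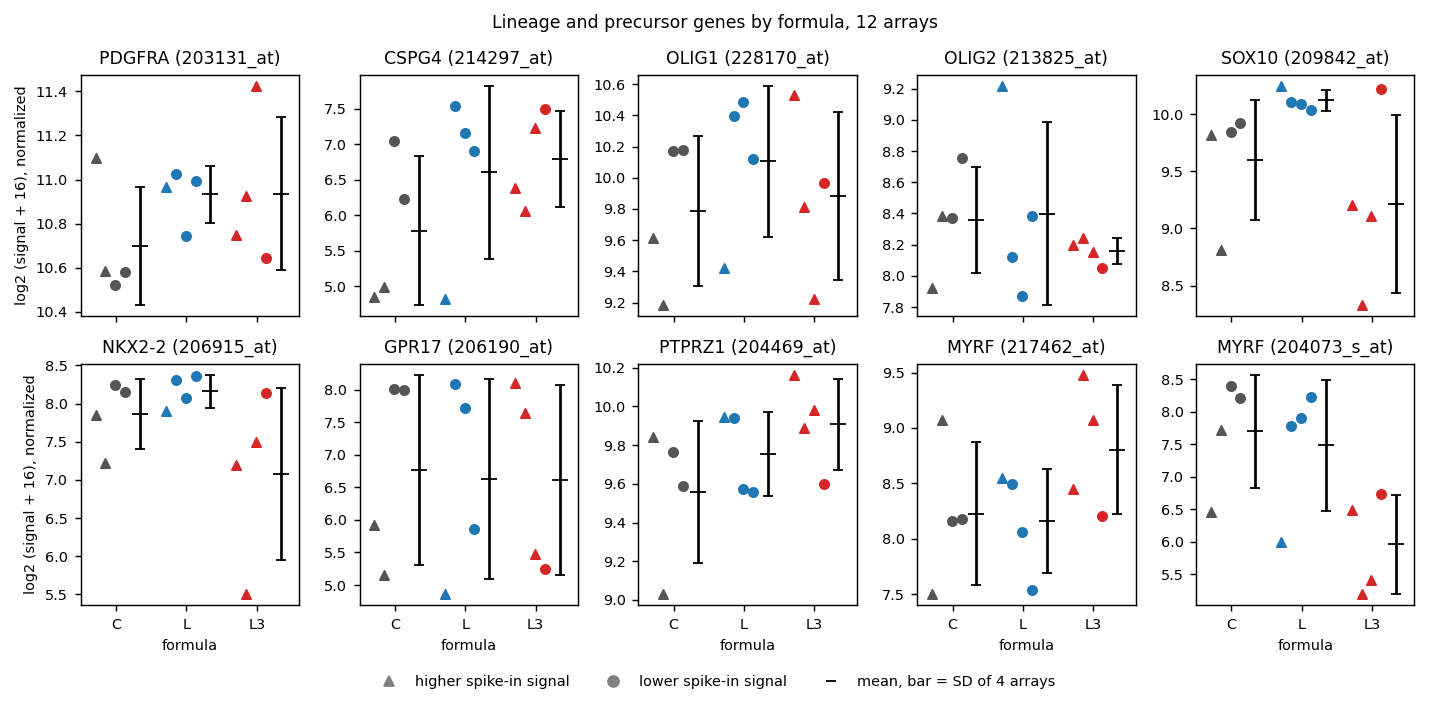
Normalized log2 (signal + 16) (y axis) of 1 probe set per gene, and of a second MYRF probe set, by formula (x axis), with 1 point per array (triangles for higher and circles for lower spike-in signal) and the mean and SD of 4 arrays beside the points. SOX10 was above all C arrays in the 4 L arrays, 3 of the 4 L3 arrays were below every L array for SOX10, and GPR17 formed 2 clusters that held 2 animals of each formula.

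SOX10, the HMG-box factor that activates myelin genes together with MYRF, was read by 2 probe sets. The brighter, 209842_at, had signals of 856, 449, 1063 and 1048 on formula C, 936, 1306, 1139 and 1187 on L, and 562, 329, 528 and 1286 on L3. After normalization the 4 L arrays stood at 10.04 to 10.25, above all C arrays at 8.82 to 9.92, and 3 of the 4 L3 arrays stood at 8.33 to 9.21, below every L array. L3 replicate 4 stood among the L arrays at 10.22. Before normalization the L and C signals overlapped, with 936 in L replicate 1 below 1063 and 1048 in C. The L/C difference was 0.52 on the log2 scale (SE 0.35, limma unadjusted p = 0.159), and the exact permutation p of 0.0286 is the smallest that 4 against 4 arrays can give. Without C replicate 2, the lowest C array, it was 0.26 (unadjusted p = 0.465 from limma). SOX10 209842_at was the only 1 of the 18 probe sets whose groups did not overlap in L/C, against 2.1% of all probe sets, and in L3/C (2.21% of all) and L3/L (2.66% of all) 0 of the 18 were without overlap. The L3/C difference was −0.38 (SE 0.35, exact permutation p = 0.4). The L3/L difference was −0.90 (SE 0.35), with an unadjusted p of 0.0209 and an adjusted p of 0.891 from limma and an exact permutation p = 0.114. Among the 6 arrays of lower spike-in signal, which hold 1 L3 array, L3/C was 0.38 and L3/L was 0.16, and in the 6 with higher signal, which hold 1 L array, L3/C was −0.36 and L3/L was −1.14. With the 2 sets of arrays as a block L3/L was −0.61 (unadjusted p = 0.0839), and without L3 replicate 2 it was −0.61 (unadjusted p = 0.0892, both from limma). The signals of SOX10 were 329 to 936 in the arrays with higher spike-in signal and 1048 to 1306 in those with lower. The second SOX10 probe set, 209843_s_at, had signals of 62.9 to 181, did not follow the first (correlation 0.090 over 12 arrays), and differed by −0.13 for L/C and by −0.11 for L3/L (SE 0.45 for each).

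NKX2-2, a homeodomain factor that rises when precursors begin to differentiate, had signals of 225, 158, 241 and 247 on formula C, 267, 262, 244 and 289.9 on L, and 148 (replicate 1), 30.4, 199 and 249 on L3. L3 replicate 2 was the lowest by far, and L3 replicate 4 lay among the L arrays. The L3/L difference was −1.08 on the log2 scale (SE 0.50), with an unadjusted p of 0.0469 and an adjusted p of 0.891 from limma and an exact permutation p = 0.0857. Without L3 replicate 2 it was −0.56, with an unadjusted p of 0.189. Leaving out any 1 of 7 other arrays also took the unadjusted p past 0.05, with values of −1.01 to −1.12. The L3/C difference was −0.78 (SE 0.50, exact permutation p = 0.229) and the L/C difference 0.30 (SE 0.50, exact permutation p = 0.286). Among the 6 arrays of lower spike-in signal L3/L was −0.13, and among the 6 of higher signal it was −1.16. As a block these sets gave −0.69 (unadjusted p = 0.182).

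MYRF, the membrane-bound factor that cleaves itself and turns on the myelin programme in postmitotic oligodendrocytes, gave different readings from its probe sets. Probe set 204073_s_at had signals of 78.7, 227, 280.3 and 261 on formula C, 58.7, 171, 213 and 259.7 on L, and 83.7, 21.7, 28 and 84.0 on L3. Every L3 array was at or below 84.0, while 3 of the 4 C arrays and 3 of the 4 L arrays were at 171 or more. The L3/C difference was −1.74 on the log2 scale (SE 0.61, unadjusted p = 0.0116 and adjusted p = 0.999 from limma, exact permutation p = 0.0857). The L3/L difference was −1.53 (SE 0.61, unadjusted p = 0.0241 and adjusted p = 0.891 from limma, exact permutation p = 0.0857), and L/C was −0.22 (SE 0.61, exact permutation p = 0.686). Among the 6 arrays of lower spike-in signal L3/C was −1.62 and L3/L was −1.25. Among the 6 of higher signal L3/C was −1.42 and L3/L was −0.30. With the 2 sets as a block L3/C was −1.40 (unadjusted p = 0.0114) and L3/L was −0.83 (unadjusted p = 0.133). L3/C kept an unadjusted p under 0.05 without any single array, at −2.16 to −1.49, and L3/L lost it without L replicate 2, 3 or 4 or L3 replicate 2 or 3, at −1.43 to −1.27. With age as a covariate L3/L was −0.64 and L3/C was −1.45.

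Probe set 217462_at of MYRF had signals of 174, 518, 224 and 252 on formula C, 398 (replicate 1), 305, 240.0 and 143 on L, and 355, 658, 518 and 264 on L3. Here all 4 L3 arrays were above 3 of the 4 C arrays, and the groups overlapped. The log2 difference was 0.58 (SE 0.41, exact permutation p = 0.143) in L3/C and 0.65 (SE 0.41, exact permutation p = 0.171) in L3/L, the opposite direction to 204073_s_at. The Pearson correlation of the 2 probe sets over the 12 arrays was −0.55 (permutation p = 0.0694, and 0.208 adjusted over 6 such pairs), with a Spearman rho of −0.63 (permutation p = 0.0331, and 0.0992 adjusted). Pearson r was −0.58 without the 2 arrays farthest from the median, and −0.28 and −0.32 within the arrays of higher and of lower spike-in signal. The third MYRF probe set, 217463_s_at, had signals of 6.9 to 33.2.

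The 3 probe sets with an unadjusted p under 0.05 in L3/L, and MYRF 217462_at without one, had the correlations farthest from 0 with the spike-in controls among the probe sets compared, 1 per gene and a second for MYRF. The Pearson correlation with the mean log2 spike-in signal over the 12 arrays was −0.70 for SOX10 209842_at, −0.69 for NKX2-2, −0.75 for MYRF 204073_s_at and 0.72 for MYRF 217462_at, each with a permutation p of 0.0563 after adjustment over 20 relations, which misses 0.05. The Spearman rho was −0.56, −0.79, −0.78 and 0.71, with adjusted permutation p of 0.156, 0.036, 0.036 and 0.0573. The first 3 of these probe sets were picked for lower values in L3, and 3 of the L3 arrays had higher spike-in signal. Formula and spike-in signal are thus partly confounded in r over the 12 arrays. With formula means removed r was −0.63, −0.59, −0.74 and 0.65, with adjusted permutation p of 0.286, 0.345, 0.145 and 0.219. Without the 2 arrays farthest from the median spike-in signal, r was −0.68, −0.72, −0.64 and 0.59. Within the arrays of higher spike-in signal r was −0.42, −0.43, −0.71 and 0.77, and within those of lower signal −0.49, 0.14, 0.41 and 0.60. For PDGFRA, CSPG4, OLIG1, OLIG2, GPR17 and PTPRZ1, r lay between −0.55 and 0.44, with an adjusted permutation p of 0.225 or more. Without quantile normalization r of PDGFRA was −0.36. The 20 relations also took in the log2 ACTB 3′ to 5′ ratio. Against it SOX10, NKX2-2, MYRF 204073_s_at and MYRF 217462_at had r of −0.42, −0.45, −0.52 and 0.25, with adjusted permutation p of 0.225 or more. Their rho was −0.41, −0.76, −0.70 and 0.36, with adjusted permutation p of 0.34, 0.0361, 0.0573 and 0.38. With formula means removed r was −0.27, −0.33, −0.48 and 0.11, with adjusted permutation p of 0.345 or more.

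**Figure D3:**
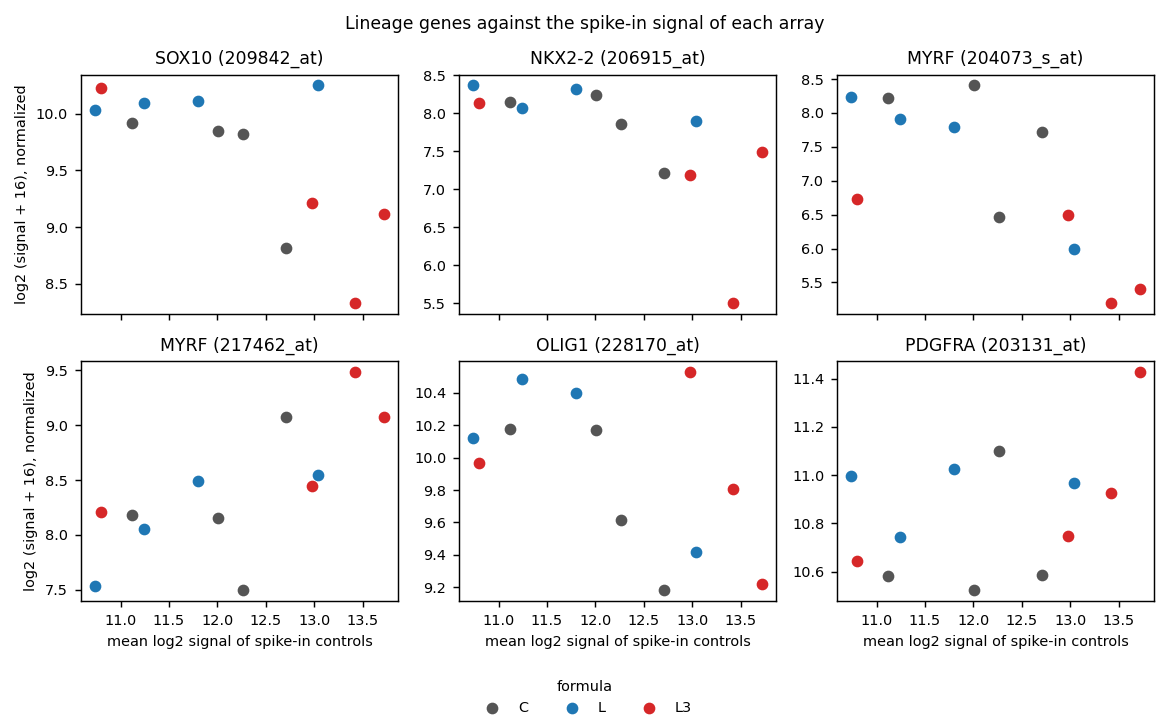
Normalized log2 (signal + 16) (y axis) of 6 probe sets against the mean log2 signal of the bacterial spike-in controls of the same array (x axis), with 1 point per array coloured by formula. SOX10, NKX2-2 and MYRF 204073_s_at were lower in arrays with more spike-in signal (r of −0.70, −0.69 and −0.75), MYRF 217462_at was higher (r of 0.72), and 3 of the 4 L3 arrays lie at the right.

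From animal to animal, few pairs among 8 of the 9 genes varied together in the normalized values. Each gene was taken by its brightest probe set and GPR17 was left out because of its clusters. So read, the 28 pairs of the other 8 genes had a median Pearson r of 0.036, from −0.75 to 0.90, and 16 were positive. SOX10 and NKX2-2 had r = 0.90 (permutation p = 0.0117 adjusted over 45 relations) and rho = 0.68 (adjusted permutation p = 0.275). Their r was 0.81 without the 2 arrays farthest from the median, 0.85 within the arrays with higher spike-in signal and −0.16 within those with lower. With formula means removed it was 0.88, with an adjusted permutation p of 0.216. MYRF 217462_at ran opposite to both, with r = −0.75 against SOX10 (permutation p = 0.0421 adjusted, rho = −0.37, adjusted permutation p = 0.667) and r = −0.75 against NKX2-2 (permutation p = 0.0327 adjusted, rho = −0.57, adjusted permutation p = 0.477). Without the 2 farthest arrays these were −0.43 and −0.67, and within the arrays of higher and of lower spike-in signal −0.73 and 0.13 for SOX10, and −0.68 and −0.29 for NKX2-2. With formula means removed they were −0.71 and −0.65, each with an adjusted permutation p of 0.234. These relations were computed for 217462_at only. MYRF 204073_s_at had r = −0.55 with 217462_at, and its r with SOX10 and NKX2-2 was not computed. OLIG1 and its neighbour OLIG2 had r = −0.28 (permutation p = 0.772 adjusted, rho = −0.29, adjusted permutation p = 0.679), and −0.45 without the 2 farthest arrays. Some r changed without quantile normalization. For PDGFRA r went from −0.38 to 0.48 with OLIG1, from −0.11 to 0.47 with SOX10 and from 0.019 to 0.52 with CSPG4. It went from −0.14 to −0.58 with OLIG2 and from 0.11 to −0.49 with MYRF 217462_at. SOX10 and NKX2-2 then had r = 0.83, and MYRF 217462_at −0.79 and −0.68 against them.

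OLIG1 varied together with the genes of the myelin sheath. Its correlation with the mean log2 level of 15 mature myelin genes was r = 0.82 (permutation p = 0.0327 adjusted over 45 relations) and rho = 0.82 (adjusted permutation p = 0.0488). It was 0.62 without the 2 arrays farthest from the median, 0.75 and 0.51 within the arrays of higher and of lower spike-in signal, and 0.82 with each array taken as a deviation from the mean of its formula, where the adjusted permutation p was 0.051. No other member reached an adjusted p under 0.05 with the myelin list. Within the higher cluster of GPR17, r of GPR17 with OLIG1 was 0.53 and with the myelin list 0.59, and within the lower cluster 0.45 and 0.53 (n = 6 each). Across both clusters r of GPR17 with OLIG1 was 0.79 (permutation p = 0.0421 adjusted) and rho was 0.85 (adjusted permutation p = 0.0481). With formula means removed r was 0.84, with an adjusted permutation p of 0.051. Within the arrays of higher and of lower spike-in signal it was 0.89 and 0.71. A pooled r over 2 clusters can reflect which cluster an array is in.

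**Figure D4:**
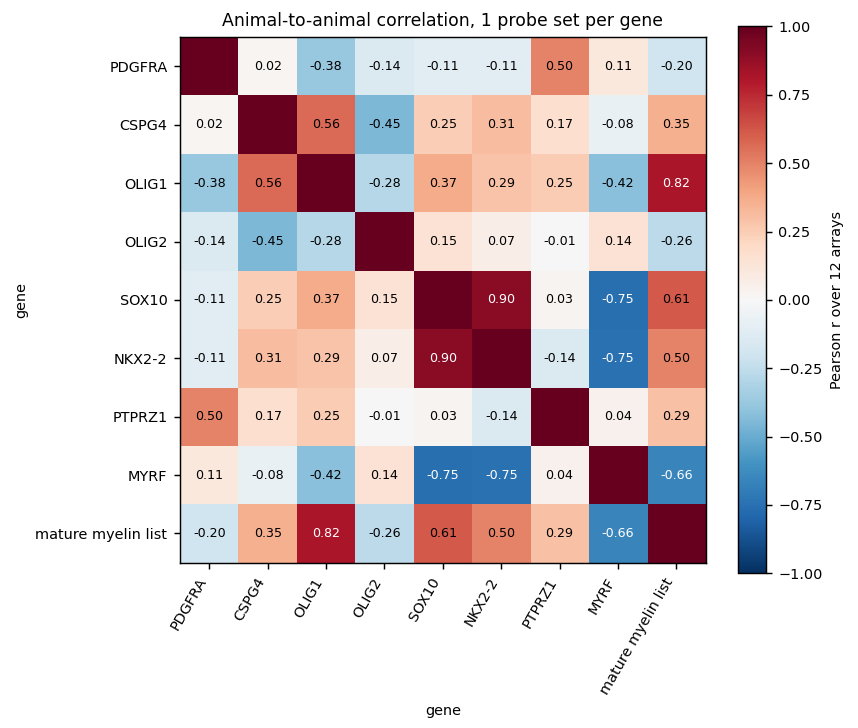
Pearson r over the 12 arrays between 8 of the 9 genes, each by its probe set with the highest mean signal, and the mean of the mature myelin genes (both axes, colour scale from −1 to 1). SOX10 and NKX2-2 stand out at 0.90, OLIG1 and the myelin list at 0.82, and MYRF 217462_at at −0.75 against SOX10 and NKX2-2, while the median of the 28 gene pairs is 0.036.

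Of 29 other genes of precursor cells, committed cells and their transcription factors, 28 were measured, and by their probe set with the highest mean signal 17 were higher and 11 lower for L/C, 14 and 14 for L3/C, and 12 and 16 for L3/L, with 0 at an adjusted p under 0.05. Their median log2 difference was 0.082, −0.0029 and −0.065. ST18, a zinc finger factor, was the 1 gene at an unadjusted p under 0.05 (L3/L, 1.44, SE 0.68, p = 0.0492 from limma, exact permutation p = 0.143). Its signals were 214, 15.9, 298 (replicate 3) and 41.5 on L3, against 11.9, 39.9, 8.9 and 25.1 on L, so that 3 L3 arrays were above every L array, 1 of them by little, and 1 lay in the L range. Within the arrays of higher and of lower spike-in signal L3/L of ST18 was 2.35 and 0.46. BCAS1, a marker of early myelinating oligodendrocytes, differed by −0.84 in L3/L (SE 0.41, exact permutation p = 0.2), with signals of 517, 223, 120 (replicate 3) and 306 on L3, against 599, 371, 388 and 384 on L. It was −1.27 and −0.35 within the arrays of higher and of lower spike-in signal. SOX5, which with SOX6 holds precursors back from maturing, differed by 0.48 in L3/C (SE 0.24, exact permutation p = 0.0857).

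Of 11 ligands and binding partners of PDGFRA and PTPRZ1, all were measured, and 4 were higher and 7 lower for L/C, 7 and 4 for L3/C, and 8 and 3 for L3/L, with 0 at an adjusted p under 0.05. The median was −0.14 in L/C and 0.25 in L3/L, and over all 32 probe sets of these genes both turned, to 0.015 (17 higher and 15 lower) and −0.028 (16 and 16). PTN, or pleiotrophin, the ligand of PTPRZ1, had signals of 2000.5, 4295, 4010 and 6614 on L, against 2427, 1732, 2995 and 4020.1 on C, and the groups overlapped. Its L/C difference was 0.53 (SE 0.22, unadjusted p = 0.0256 and adjusted p = 0.999985 from limma, exact permutation p = 0.0857), and its L3/C difference was 0.44 (SE 0.22, exact permutation p = 0.0571). Within the arrays of higher and of lower spike-in signal L/C of PTN was 0.35 and 0.57. PDGFC and PDGFB, PDGF family ligands, differed by −0.51 in L3/L (SE 0.32, exact permutation p = 0.0286) and −0.53 in L/C (SE 0.34, exact permutation p = 0.2). PDGFC signals were 225, 278 (replicate 2), 242 and 209 on L3, against 355, 361, 275 and 269 on L, and overlapped before normalization.

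Of 10 genes that hold back oligodendrocyte differentiation, all were measured, and 4 were higher and 6 lower for L/C, 5 and 5 for L3/C, and 6 and 4 for L3/L, with 0 at an adjusted p under 0.05. ID4, an inhibitor of helix-loop-helix factors such as OLIG1 and OLIG2, had signals of 1001, 1732, 1626 and 1434 on L3, against 1216 (replicate 1), 557, 1135 and 1129 on C. Its L3/C difference was 0.76 (SE 0.33, unadjusted p = 0.0356 and adjusted p = 0.999 from limma, exact permutation p = 0.0571), and it was 0.82 and 0.45 within the arrays of higher and of lower spike-in signal. ID2, its relative, differed by −0.48 in L3/L (SE 0.25, exact permutation p = 0.143). SOX2, a factor of neural stem and precursor cells, differed by 0.45 in L3/L (SE 0.24, exact permutation p = 0.143), or by −0.017 when arrays were centred on their medians.

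Of 16 mature myelin genes 15 were measured, and 11 were higher and 4 lower for L/C, 6 and 9 for L3/C, and 4 and 11 for L3/L, with 0 at an adjusted p under 0.05. Their median log2 difference was 0.051, −0.084 and −0.21. Over all 42 probe sets of these genes 28 were higher and 14 lower for L/C, 19 and 23 for L3/C, and 20 and 22 for L3/L, with a median of 0.080, −0.043 and −0.081. MOG, a myelin surface glycoprotein, had signals of 313, 207, 20.5 and 846 on L3, against 444, 722 (replicate 2), 1255 and 919 on L. Its L3/L difference was −1.86 (SE 0.72, unadjusted p = 0.0195 and adjusted p = 0.891 from limma, exact permutation p = 0.0857). Without L3 replicate 3 it was −1.03 (unadjusted p = 0.0857), with the spike-in sets as a block −1.03 (unadjusted p = 0.103), and within the arrays of higher and of lower spike-in signal −1.64 and −0.14. CNP, a myelin phosphodiesterase, differed by −0.56 in L3/L (SE 0.34, exact permutation p = 0.171), and ASPA, which releases acetate from N-acetylaspartate, by 1.12 (SE 0.71, exact permutation p = 0.2). The summed signal of the 15 genes was 8820 to 18273 on L3, 10557 to 22862 on L and 9064 to 22132 on C, and it was 8820 to 20341 in the arrays with higher spike-in signal and 13948 to 22862 in those with lower.

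Markers of other cell types were read in the same way. The summed signal of 7 microglial markers was 1988 to 4135 on L3, 1989 to 6007 on L and 1599 to 3933 on C, and it was 1599 to 2593 in the arrays with higher spike-in signal, with no overlap with 3228 to 6007 in those with lower. In L/C 7 microglial markers were higher and 0 lower (median 0.43), as SOX10 was higher in L. In L3/L 1 was higher and 6 were lower, the direction of SOX10 and NKX2-2, and in both 0 had an adjusted p under 0.05. Their part in the results of the 9 genes was not tested. Vessel wall and meningeal markers, which matter here because cells of the vessel wall can carry PDGFRA and CSPG4 transcripts, summed to 6054 to 17309 on L3, 4516 to 13934 on L and 4036 to 8742 on C. Of these 8 markers 5 were higher for L/C and 6 for L3/C, and 0 had an adjusted p under 0.05, and their part in the PDGFRA and CSPG4 values was not tested. Of 9 neuronal markers 4 were higher in each comparison. Of 8 astrocyte markers 5 were higher in L/C, 5 in L3/C and 6 in L3/L, where the median was 0.29, and over all 22 probe sets of these markers it turned to −0.13 (9 higher and 13 lower). Of 5 endothelial markers 3 were higher in L/C, 2 in L3/C and 2 in L3/L.

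For PDGFRA, OLIG2 and SOX10 the genes with the most similar pattern over the 12 arrays were sought among 22070 probe sets with 1 symbol and a mean signal above the median, by the Pearson correlation of deviations from the formula means. Closest to PDGFRA were TBXT (0.93), ZDHHC2 (0.91) and DND1 (0.90). Closest to OLIG2 were IQGAP3 (0.91), ABCF2 (0.90) and PDZD8 (0.89), and closest to SOX10 were C11orf68 (0.95), SPTBN1 (0.94) and SRD5A1 (0.92). These are the highest of 22070 values over 12 arrays that share their scaling and spike-in split, and none of the 9 names is a member or a gene of the lists above.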

How the data were processed

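Total RNA of 12 precentral gyri was hybridized to 1 array each. The authors deposited MAS5 signals from GCOS, linear intensity values scaled per array to a common trimmed mean, and not the RMA values that the methods of the paper describe. Names came from the platform annotation, by which 41091 probe sets have 1 symbol, 1801 several and 11721 none. After removal of 62 control probe sets, 16 was added, log2 taken and arrays quantile normalized. Limma 3.58.1 in R 4.3.3 fitted 3 formula means with a variance trend and 9 residual degrees of freedom. Benjamini-Hochberg adjustment ran over 54613 probe sets, with a threshold of 0.05. Exact permutation tests compared 4 with 4 arrays and were two-sided. Correlations had two-sided permutation p values from 100000 resamples (Python 3.11.15, numpy 2.4.6). Lists used the probe set with the highest mean signal per gene. The members and lists were chosen with earlier results of these data known. Genes named are all members, up to 3 of each non-marker list with the smallest p for any difference, and the 3 closest in pattern to PDGFRA, OLIG2 and SOX10. The fit was checked on simulated data. Alternatives covered normalization, pseudocount, filter, variance, samples, covariates (sex, age, ACTB ratio, spike-in signal), a replicate block and single arrays left out. The spike-in block and the fits within its 2 sets of arrays were added after seeing the data. Precision rests on 4 arrays per formula, with a median SE of 0.44 over the 18 probe sets. Probe sequences were not analysed here.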

Additional observations from a re-analysis of the deposited data

Results flagged for a closer look

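In groups of 4 arrays, 1 array stood far from the other 3 (its gap past Dixon's critical share of the range of the group) for 5 of the 54 groups of member probe sets, and for 8 of 90 groups with the named list genes included. About 1 group in 20 is marked by chance. Values are normalized log2 (signal + 16). PDGFRA 203131_at was 11.10 in C replicate 1, against 10.52 to 10.59 in the other C arrays. SOX10 209842_at was 8.82 in C replicate 2, against 9.82 to 9.92. OLIG2 213824_at was 4.56 in L3 replicate 3, against 7.07 to 7.16 in the other L3 arrays. In L replicate 1, GPR17 215225_s_at was 5.09 (6.29 to 6.47 in the other L arrays), MYRF 217463_s_at 5.37 (4.71 to 4.81), BCAS1 9.32 (8.67 to 8.72) and ID4 9.10 (10.28 to 10.48). SOX2 was 10.24 in C replicate 4, against 10.46 to 10.49 in the other C arrays.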

How the results depend on the processing

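In the alternatives run, limma and the methods' tests gave 0 of the 18 an adjusted p under 0.05. At the unadjusted threshold of 0.05, L/C kept 0 except without L replicate 1, where CSPG4 214297_at was higher (range 0 to 1 with single arrays left out). Without that array 3.06% of all probe sets had such a p in L/C. The L3/C count of 1 was 0 in the brighter probe sets (3.41% of all called), which leave out MYRF 204073_s_at. It was 2 with a spike-in covariate or block (CSPG4 214297_at higher beside MYRF lower), where 3.67% and 4.69% of all were called. Within the 6 arrays of lower spike-in signal L3/C was −2.74 for GPR17 206190_at and −1.62 for MYRF 204073_s_at. Within the 6 of higher signal it was 1.55 and −1.42, and 1.65 for CSPG4 214297_at. For the L3/C count, single arrays left out gave 1 to 3. Without L3 replicate 4, SOX10 and NKX2-2 were added, both lower. There the share of all probe sets at this p was 7.88% in L3/C and 9.95% in L3/L, against 4.26% and 5.4% with it. The L3/L count of 3 was 0 with the methods' test, females only, an age covariate, a spike-in covariate or a spike-in block. In these 3.93% to 5.29% of all probe sets had such a p. The count was 1 with an RNA quality covariate (5.34% of all). Single arrays left out gave 1 to 3, with 1 without L replicate 2 or 4 (SOX10 lower) and without L3 replicate 2 (CSPG4 204736_s_at higher). Where the count was 1, the share of all was 4.12% to 4.74%. The count of 1 for any difference was 0 in brighter probe sets and with an age or spike-in covariate, 2 with a spike-in block, and 0 to 3 with single arrays left out (0 without L3 replicate 2 or 3, 2 without C replicate 2 and 3 without L3 replicate 4). The share of all probe sets for any difference was not computed in these alternatives. Of the other genes with such a p, PTN lost it without any 1 of 3 of the 12 arrays, ID4 of 4, ST18 of 8 and MOG of 2.

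The median over members was 0.24 in L/C and −0.23 in L3/L in the brighter probe sets, 7 of the 18, and −0.19 in L3/C with arrays centred on their medians, which put the median of all probe sets at −0.12 there. With single arrays left out it was −0.013 to 0.18 in L/C, −0.14 to 0.12 in L3/C and −0.14 to 0.031 in L3/L, with the 0.18 without L replicate 1.

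Some directions turned. OLIG2 213825_at in L/C was −0.052 with no further normalization, −0.019 with centring, −0.0073 with a sex covariate, −0.50 within the lower spike-in arrays, and −0.24 to 0.21 with single arrays left out. MYRF 217462_at in L/C was 0.045 with a spike-in covariate, 0.040 with the block, 0.25 within the higher spike-in arrays, and −0.31 to 0.22 with single arrays left out, as MYRF 204073_s_at was −0.63 to 0.27. In L3/C, OLIG1 was −0.064 with no further normalization, −0.23 with centring, −0.24 within the lower spike-in arrays and −0.12 to 0.32 with single arrays left out. PDGFRA 203131_at in L3/C was −0.13 with centring, OLIG2 213825_at 0.041 within the higher spike-in arrays, and within the lower spike-in arrays SOX10 209842_at 0.38 and PTPRZ1 −0.091. In L3/L the lower spike-in arrays gave SOX10 0.16, SOX2 −0.21 and ASPA −0.52, and centring gave SOX2 −0.017. The cause was not tested. The lower set holds 1 L3 array and the higher set 1 L array, each assumed to vary like the other groups. Arrays with the same replicate number in different formulas share only a number, with correlations of their deviations from −0.085 to 0.33 and 6 of 12 over 0.1. With the replicate number as a block the counts at an unadjusted p were 0, 1 and 3 in L/C, L3/C and L3/L. The shares of all probe sets there were 3.11%, 5.19% and 7.01%, against 2.42%, 4.26% and 5.4% without the block. For any difference the count was 2 (SOX10 and MYRF 204073_s_at), and the share of all was not computed.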
